A study of Zea mays with 20 samples.

Results

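LAC1, PER42 and pox2 encode oxidases: LAC1 is a laccase, and PER42 and pox2 are class III peroxidases. They were taken as the 3 probe sets that the platform annotation gives to these gene IDs (606456, 100101533 and 542571), out of 17555 maize probe sets on the array and 1108 genes that the annotation names. Each gene had 1 probe set. RefSeq places LAC1 on chromosome 3, PER42 on chromosome 7 and pox2 on chromosome 1 (assembly Zm-B73-REFERENCE-NAM-5.0). It also lists PER42 as PRX42 and pmPOX3-1, and pox2 as PER2, PRX2 and pmPOX2. Near relatives within large oxidase families may share probe signal, which was not tested here.

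Lignin is made when monolignols, alcohols derived from phenylalanine, are exported to the wall, oxidised to radicals and coupled there. Laccases are copper enzymes that use oxygen for this oxidation, and class III peroxidases are heme enzymes that use hydrogen peroxide. Both families are large in grasses, so a single member need not act in lignification. pox2 transcript has been described in maize roots.

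Total RNA was taken from the internode of the stem at the ear, in field-grown maize that was irrigated and otherwise untreated. The 5 recombinant inbred lines, all from the cross of F288 and F271, differ in their alleles at 4 quantitative trait loci of lignin and wall degradability. RIL39 and RIL71 hold an unfavorable allele at bin 6.06 and RIL118 holds one at bin 9.02. In RIL99 and RIL54, here the favorable lines, all 4 loci are favorable. Each line was harvested at early silking and at emerging tassel, the earlier stage, with 2 arrays per line and stage and 20 in all. The labels do not say whether replicate arrays came from separate plants, so the p-values measure the spread between arrays, which may be technical. The bin 9.02 class is 1 line and the bin 6.06 class 2 lines. Other loci that differ between these lines cannot be told apart from the named ones.

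Values are log2 expression, and differences carry the standard error (SE) of a limma fit over all 20 arrays. A difference is called when its Benjamini-Hochberg adjusted p is below 0.05 over the 11033 probe sets with a log2 value above 5 in at least 2 arrays. The 6522 probe sets set aside by that filter had a median value of 2.13, with 95% of their values below 3.53, and values in that range are treated as the floor of the array. LAC1 and PER42 were above 5 on all 20 arrays. pox2 was above 5 on 4 arrays, both tassel arrays of RIL118 and both of RIL99, and it passed the filter through these. A probe set at the floor elsewhere could pass only by being high in some group, so no count over the 3 oxidases is offered as support for a shared behaviour. Replicate arrays correlated at 0.934 (RIL118 at tassel) to 0.994 (RIL39 at tassel). Signal of the control transcripts at the 5' end relative to the 3' end, a gauge of RNA and labelling quality, was lowest in replicate 2 of RIL39 at both stages (-5.06 each). Labelled RNA amounts were 53.001 to 201.72 ng at silking, against 113.41 to 417.25 ng at tassel. All silking arrays except RIL39 replicate 2 (201.72 ng) and RIL118 replicate 2 (116.28 ng) lay below the lowest tassel amount. RNA amount thus went largely with stage. Secondary-wall cellulose genes were abundant in this tissue, and 11 of 13 kernel marker probe sets were never above 5. The others, 1 of gz27 and 1 of emp2, ranged from 5.98 to 9.20 and from 10.4 to 11.6.

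LAC1 rose at silking and both peroxidases fell. The laccase averaged 8.75 ± 0.56 at silking and 7.52 ± 0.53 at tassel (SD, n = 10 each), a difference of 1.24 (SE 0.20, limma adjusted p = 0.000162) or 2.36-fold. PER42 averaged 9.93 ± 0.94 at silking and 10.99 ± 1.12 at tassel, a difference of -1.06 (SE 0.18, adjusted p = 0.000263), 2.08-fold lower. For pox2 the means were 2.81 ± 0.73 at silking and 4.02 ± 1.41 at tassel, a difference of -1.21 (SE 0.21, adjusted p = 0.000263). The stages changed most of this transcriptome. A share of 67.7% of the tested probe sets was called, 40.9% higher and 26.8% lower at silking, and the median difference was 0.12. A call by itself therefore says little about these 3 genes. By size, 4.35% of tested probe sets rose by at least as much as LAC1 and 10.5% fell by at least as much as PER42. The size of the pox2 fall is limited by the floor, where 9 of its 10 silking arrays lay. pox2 also passed the filter through tassel arrays only, so its call is no separate support for a fall. In whole tissue, fewer cells of a type and less RNA per cell cannot be told apart.

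**Figure D1:**
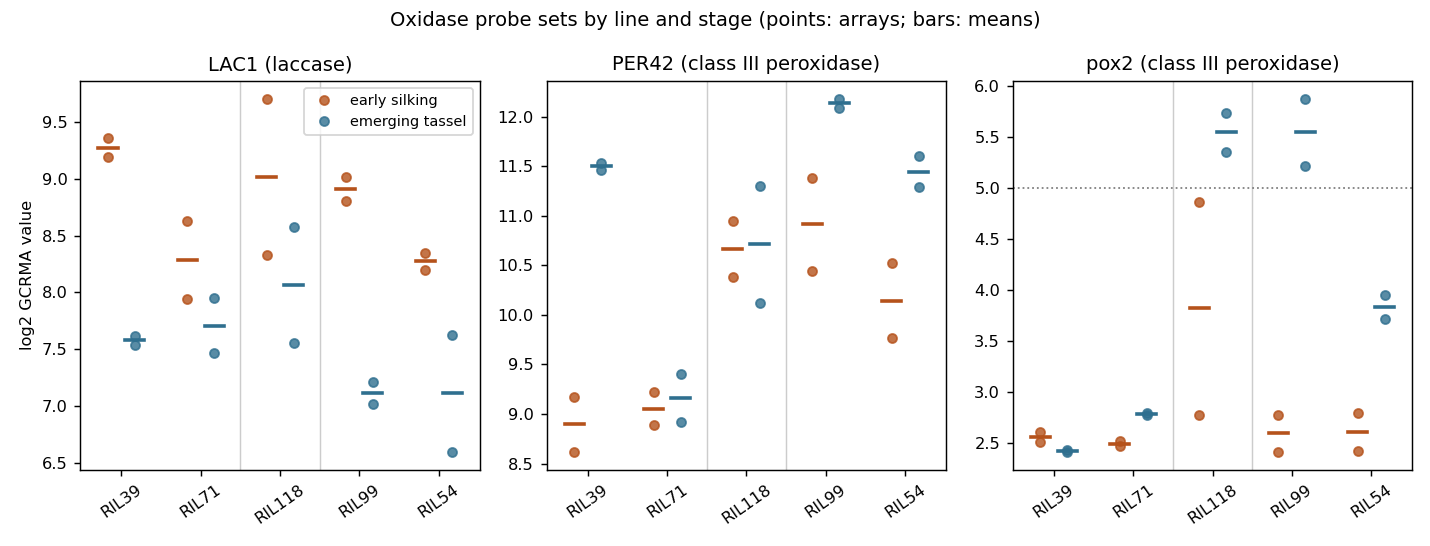
Log2 expression (vertical axis, GCRMA values) of each oxidase in the 5 lines (horizontal axis), with early silking left of emerging tassel. Points are arrays, bars are means of 2 arrays, vertical lines part the allele classes, and the dotted line in the pox2 panel is the filter level of 5. LAC1 has the higher mean at silking in every line. PER42 is lower in RIL71 at both stages and in RIL39 at silking than in the other groups. pox2 stands above 5 only in the tassel arrays of RIL118 and RIL99.

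LAC1, the laccase, was read clearly in every array. At silking its 2 arrays gave 9.19 and 9.36 in RIL39, 7.95 and 8.63 in RIL71, 8.33 and 9.70 in RIL118, 8.81 and 9.02 in RIL99, and 8.20 and 8.35 in RIL54. At tassel they gave 7.54 and 7.62 in RIL39, 7.95 and 7.47 in RIL71, 8.57 and 7.56 in RIL118, 7.02 and 7.21 in RIL99, and 7.63 and 6.60 in RIL54. The silking arrays lay above the tassel arrays of the same line without overlap in RIL39, RIL99 and RIL54. The stages did not overlap in 75.1% of tested probe sets in RIL39, 80.9% in RIL99 and 66.4% in RIL54, so this does not set LAC1 apart. In RIL118 the stages overlapped, its replicates being up to 1.38 apart. In RIL71 they overlapped narrowly, the lowest silking array and the highest tassel array both rounding to 7.95.

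The laccase had the higher mean at silking in all 5 lines, by amounts that did not differ detectably. Within lines the difference was called in RIL99 (1.80, SE 0.45, limma adjusted p = 0.00656) and in RIL39 (1.69, adjusted p = 0.0169). It was 1.16 in RIL54 (adjusted p = 0.0614), 0.95 in RIL118 (adjusted p = 0.190) and 0.58 in RIL71 (adjusted p = 0.348), none of them called. Leaving out 1 array moved these values between 0.65 and 1.68 in RIL54, 0.26 and 1.64 in RIL118, and 0.24 and 0.92 in RIL71. The RIL54 difference was called without RIL118 (adjusted p = 0.0166), without RIL54 tassel replicate 1 (0.0249) and without any 1 of the RIL118 arrays (0.0312 to 0.0471). The call in RIL39 was lost when any 1 of its 4 arrays was left out, while the value stayed between 1.61 and 1.78. It was also lost without the pair of RIL39 arrays with the least 5' control signal, at a value of 1.65. The test of whether the difference varied between lines gave an adjusted p of 0.556. Over the 11033 tested, 27.1% of probe sets were called in RIL39, 32.8% in RIL71, 11.7% in RIL118, 45.2% in RIL99 and 36.9% in RIL54. All 5 lines moved one way in 55.1% of tested probe sets, so the agreement of the lines does not set LAC1 apart. An exact sign-flip test over the 5 lines gave a two-sided p of 0.0625, the smallest that 5 lines allow.

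PER42, a class III peroxidase, was read clearly in every array, between 8.62 and 12.18. At silking its arrays gave 9.18 and 8.62 in RIL39, 8.88 and 9.22 in RIL71, 10.95 and 10.38 in RIL118, 11.38 and 10.45 in RIL99, and 9.76 and 10.52 in RIL54. At tassel they gave 11.47 and 11.54 in RIL39, 9.40 and 8.91 in RIL71, 10.12 and 11.31 in RIL118, 12.18 and 12.09 in RIL99, and 11.60 and 11.29 in RIL54. RIL71 at both stages and RIL39 at silking were lower than all other groups, while RIL39 was among the high lines at tassel. The stages overlapped in RIL71 and RIL118 and did not in RIL39, RIL99 and RIL54. The shares of tested probe sets without overlap were 75.1% in RIL39, 80.9% in RIL99 and 66.4% in RIL54, so nothing is read from this.

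PER42 had the lower mean at silking in all 5 lines, and the sizes were not shown to differ between lines. The difference was -2.61 in RIL39 (SE 0.41, limma adjusted p = 0.00126), -1.30 in RIL54 (adjusted p = 0.0260) and -1.22 in RIL99 (adjusted p = 0.0290). It was -0.11 in RIL71 (adjusted p = 0.872) and -0.05 in RIL118 (adjusted p = 0.957). The value in RIL39 is about 6.09-fold and those in RIL71 and RIL118 are within the spread of replicates. The test of unequal differences between lines had an adjusted p of 0.0625 and was not called, in a table where 6.15% of probe sets were. The RIL39 call was lost without the pair of RIL39 arrays with the least 5' control signal (-2.29, adjusted p = 0.0729). The test over lines gave 0.0229 without RIL118 tassel replicate 2. The calls in RIL99 and RIL54 were lost without some of those lines' own arrays: leaving out RIL99 silking replicate 2 gave -0.75 (adjusted p = 0.242) and leaving out RIL54 silking replicate 1 gave -0.92 (adjusted p = 0.207). They were also lost with no filter on dim probe sets (adjusted p = 0.0556 and 0.0504). The exact sign-flip p over lines was 0.0625.

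pox2, the other peroxidase, was near the floor in most arrays. At silking its arrays gave 2.50 and 2.61 in RIL39, 2.51 and 2.46 in RIL71, 4.86 and 2.77 in RIL118, 2.77 and 2.41 in RIL99, and 2.41 and 2.79 in RIL54. At tassel they gave 2.41 and 2.43 in RIL39, 2.79 and 2.77 in RIL71, 5.74 and 5.35 in RIL118, 5.21 and 5.87 in RIL99, and 3.71 and 3.94 in RIL54. At tassel it stood well above the floor in RIL118 and RIL99 and slightly above it in RIL54. At silking only replicate 1 of RIL118 stood above it. Both stages of RIL39 and RIL71 lay at the floor, where values have no order.

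pox2 fell at silking in RIL99 and RIL118, the lines with the highest tassel values. The difference was -2.95 in RIL99 (SE 0.47, limma adjusted p = 0.000396) and -1.73 in RIL118 (adjusted p = 0.0359). pox2 passed the filter through the tassel arrays of these lines, so these calls are no separate support for a fall. The difference of -1.23 in RIL54 was not called (adjusted p = 0.0588), but was after centring each array on its median (-1.31, adjusted p = 0.0492) and without RIL118 (0.00223) or either of its silking arrays (0.00220). In RIL39 and RIL71, with both stages at the floor, the differences were 0.14 (adjusted p = 0.862) and -0.29 (adjusted p = 0.670). Against silking arrays at the floor, the size of a fall is limited by the floor. The RIL118 value rests on its unlike silking arrays, being -2.77 without replicate 1 and -0.68 (adjusted p = 0.221) without replicate 2. That call was also lost with no filter, with RNA amount as a covariate, and without either RIL118 tassel array or either RIL39 tassel array (adjusted p = 0.0533 to 0.159). The test of unequal differences between lines had an adjusted p of 0.0591, and 0.00148 when RIL118 was left out. The exact sign-flip p over lines was 0.125. Within lines the 2 stages did not overlap in 75.1% of tested probe sets in RIL39, 69.4% in RIL71, 54.7% in RIL118, 80.9% in RIL99 and 66.4% in RIL54.

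**Figure D2:**
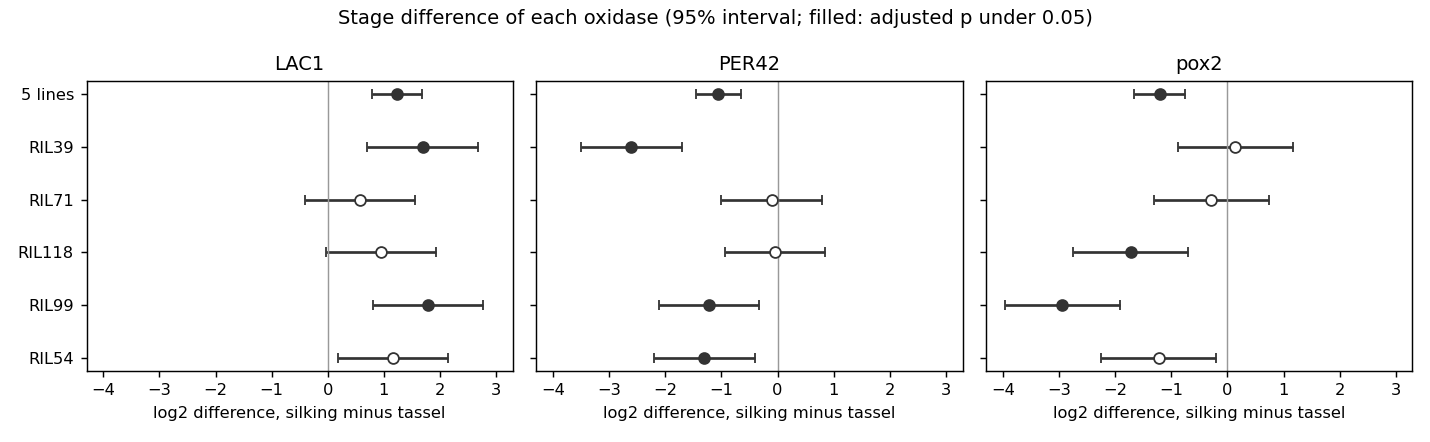
Log2 difference of early silking minus emerging tassel (horizontal axis) for each oxidase, over the 5 lines and within each line. Points are estimates, bars are 95% intervals, and filled points have a limma adjusted p below 0.05. LAC1 lies right of 0 in every row. PER42 lies furthest left in RIL39 (-2.61) and pox2 in RIL99 (-2.95).

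The comparison of RIL39 and RIL71 with the favorable lines addresses the bin 6.06 locus. Both peroxidases were lower in RIL39 and RIL71, and LAC1 was not called. PER42 averaged 9.65 ± 1.17 in RIL39 and RIL71 and 11.16 ± 0.85 in RIL99 and RIL54 (SD over 8 arrays each), a difference of -1.51 (SE 0.21, limma adjusted p = 0.000205) or 2.84-fold. pox2 averaged 2.56 ± 0.15 in RIL39 and RIL71 and 3.64 ± 1.31 in the favorable lines, a difference of -1.08 (SE 0.24, adjusted p = 0.00640). LAC1 averaged 8.21 ± 0.75 in RIL39 and RIL71 and 7.85 ± 0.88 in the favorable lines. Its difference of 0.36 (SE 0.23, adjusted p = 0.312) had a 95% interval of -0.13 to 0.85. In this comparison 18.3% of tested probe sets were called, and 8.43% were called lower. pox2 passed the filter partly through RIL99 arrays compared here, so these shares are not read for pox2. Of the tested probe sets, 1.29% fell by at least as much as PER42. The size of the pox2 difference is limited by the floor, at which all 8 arrays of RIL39 and RIL71 lay.

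The stage at which the peroxidases differed was not alike. At silking PER42 was between 8.62 and 9.22 in RIL39 and RIL71 and between 9.76 and 11.38 in the favorable lines, a difference of -1.55 (limma adjusted p = 0.00413). These arrays did not overlap, which was so for 8.79% of tested probe sets, and 8.76% were called at silking. At tassel its difference was -1.46 (adjusted p = 0.00479), but the arrays overlapped. RIL39 reached 11.54 there, above the lowest favorable array (11.29), and RIL71 reached 9.40 at most. The tassel difference in PER42 thus lay mainly in RIL71. Over both stages RIL71 was lower than RIL39 by 1.09 (SE 0.29, adjusted p = 0.0224) in a contrast that called 16.6% of tested probe sets. That call was lost without the pair of RIL39 arrays with the least 5' control signal, and without any 1 of 5 arrays (adjusted p = 0.0574 to 0.0989). Between RIL71 and RIL39, LAC1 differed by -0.43 (adjusted p = 0.381) and pox2 by 0.15 (adjusted p = 0.793), neither called.

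pox2 differed at tassel, the stage at which it was measurable. Its tassel arrays were between 2.41 and 2.79 in RIL39 and RIL71 and between 3.71 and 5.87 in the favorable lines, a difference of -2.09 (SE 0.33, limma adjusted p = 0.00109). The groups did not overlap. The shares over tested probe sets were 7.84% without overlap and 14.3% called at tassel, but pox2 passed the filter partly through the RIL99 arrays compared here, so nothing is read from them for pox2. At silking, with all 8 arrays at the floor, the difference was -0.07 (adjusted p = 0.948). The change of the difference between stages was 2.01 (SE 0.47, adjusted p = 0.0719). It was not called in a contrast that called only 0.807% of tested probe sets, and was called without RIL118 (adjusted p = 0.00127), whose arrays enter it only through the shared spread. For LAC1 the differences were 0.19 at silking (adjusted p = 0.833) and 0.53 at tassel (adjusted p = 0.307).

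The comparison of RIL118 with the favorable lines addresses the bin 9.02 locus and uses the same favorable arrays. pox2 was the oxidase called, and it was higher in RIL118. It averaged 4.68 ± 1.32 in RIL118 (SD, n = 4) and 3.64 ± 1.31 in the favorable lines (n = 8), a difference of 1.04 (SE 0.29, limma adjusted p = 0.0243). In this comparison 20.7% of tested probe sets were called, and 11.7% were called higher. pox2 passed the filter through RIL118 and RIL99 tassel arrays compared here, so nothing is read from these shares for pox2. The pox2 call was lost without RIL118 silking replicate 1 (0.52, adjusted p = 0.0521), RIL118 tassel replicate 1 (0.94, 0.106), RIL99 tassel replicate 1 (0.96, 0.0504) or RIL99 silking replicate 2 (0.99, 0.0510). Without RIL118 silking replicate 2 the value was 1.56. By stage, its differences of 1.22 at silking (adjusted p = 0.0616) and 0.86 at tassel (adjusted p = 0.169) were not called. The silking value ran from 0.18 without RIL118 silking replicate 1 to 2.26 (adjusted p = 0.000196) without replicate 2. The tassel value was called without either of these arrays (adjusted p = 0.0151). RIL118 and RIL99 had like pox2 means at tassel, and RIL54 was the lower favorable line.

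LAC1 and PER42 were not called in RIL118. LAC1 averaged 8.54 ± 0.89 in RIL118 and 7.85 ± 0.88 in the favorable lines, a difference of 0.69 (SE 0.28, limma adjusted p = 0.0977). PER42 averaged 10.69 ± 0.54 in RIL118 and 11.16 ± 0.85 in the favorable lines, a difference of -0.47 (SE 0.25, adjusted p = 0.204). PER42 was 1.08 lower in RIL118 at tassel on the log2 scale (adjusted p = 0.0578) and differed by 0.14 at silking (adjusted p = 0.843). The tassel value was called after centring each array on its median (adjusted p = 0.0495) and with RNA amount as a covariate (0.0445), and it was -1.67 without RIL118 tassel replicate 2 (0.0140). LAC1 was called over both stages without RIL118 silking replicate 1 (1.03, adjusted p = 0.0241), RIL118 tassel replicate 2 (0.94, 0.0374) or RIL54 tassel replicate 1 (0.82, 0.0459). PER42 was called over both stages without RIL118 tassel replicate 2 (-0.77, adjusted p = 0.0398). At silking 15.9% of tested probe sets were called, at tassel 16.3%, and for the change between stages 7.84%, none of the 3 oxidases among them. Over both stages no oxidase was called between the favorable lines. RIL54 minus RIL99 was -0.32 for LAC1 (adjusted p = 0.567), -0.73 for PER42 (0.114) and -0.85 for pox2 (0.107), where 16% of tested probe sets were called. The pox2 difference was called without RIL118, whose arrays enter it only through the shared spread (adjusted p = 0.00380). At tassel pox2 was lower in RIL54 than in RIL99, a difference of -1.72 (SE 0.47, adjusted p = 0.0264), in a contrast that called 16.7% of tested probe sets. The RIL99 arrays compared here helped pox2 pass the filter, so nothing is read from that share.

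**Figure D3:**
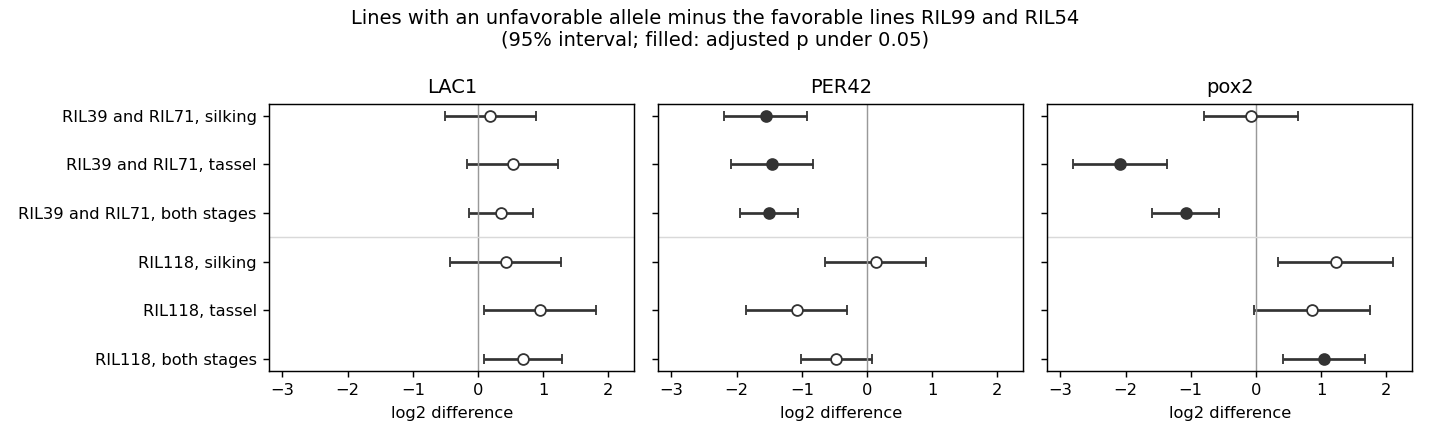
Log2 difference (horizontal axis) of the lines with an unfavorable allele minus the favorable lines RIL99 and RIL54, for each oxidase at each stage and over both. Points are estimates, bars are 95% intervals, and filled points have a limma adjusted p below 0.05. The mean of RIL39 and RIL71 is called lower at both stages for PER42 and at tassel for pox2, and RIL118 is called for pox2 over both stages.

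The order of the lines differed between the oxidases and between the stages. For LAC1 the order at silking was RIL39 (9.27), RIL118 (9.01), RIL99 (8.91), RIL71 (8.29) and RIL54 (8.27), and at tassel RIL118 (8.06), RIL71 (7.71), RIL39 (7.58), RIL99 (7.11) and RIL54 (7.11). No neighbours in either LAC1 order were called different. For PER42 the order at silking was RIL99 (10.92), RIL118 (10.66), RIL54 (10.14), RIL71 (9.05) and RIL39 (8.90), again with no neighbours called. At tassel it was RIL99 (12.13), RIL39 (11.50), RIL54 (11.45), RIL118 (10.71) and RIL71 (9.16). Only its last step was called, RIL118 exceeding RIL71 by 1.55 (SE 0.41, limma adjusted p = 0.0288) in a contrast that called 11.7% of tested probe sets. RIL39 thus held the lowest PER42 mean at silking and the next to highest at tassel. For pox2 at tassel RIL118 (5.54) and RIL99 (5.54) led, ahead of RIL54 (3.83). RIL118 exceeded RIL54 by 1.72 (SE 0.47, adjusted p = 0.0297), where 15.2% of tested probe sets were called. pox2 passed the filter partly through the RIL118 arrays compared here, so nothing is read from that share. Below these, and at silking below RIL118 (3.82), the pox2 means lay at the floor.

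The variation of LAC1 fell mainly on stage and that of the peroxidases mainly on line. Of the sum of squares of LAC1 over the 20 arrays, 58.7% lay between stages, 14.7% between lines, 8.0% in the stage by line term and 18.6% between replicates. For PER42 the shares were 22.6% between stages, 51.7% between lines, 17.8% in the stage by line term and 7.99% between replicates. For pox2 they were 24.4% between stages, 47.0% between lines, 19.8% in the stage by line term and 8.76% between replicates. The test of the 5 line means was called for PER42 (limma adjusted p = 0.000351) and pox2 (adjusted p = 0.000712) and not for LAC1 (adjusted p = 0.170), with 44% of tested probe sets called. pox2 passed the filter by being high in RIL118 and RIL99, so its call in this test is no separate support. LAC1 passed that test without RIL118 silking replicate 1 (adjusted p = 0.0415). The SD between replicates was 0.49 for LAC1, 0.44 for PER42 and 0.51 for pox2. The median over tested probe sets was 0.25. The pox2 value rests on RIL118 at silking, whose replicates lay 2.08 apart, against 0.02 to 0.66 in its other groups.

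**Figure D4:**
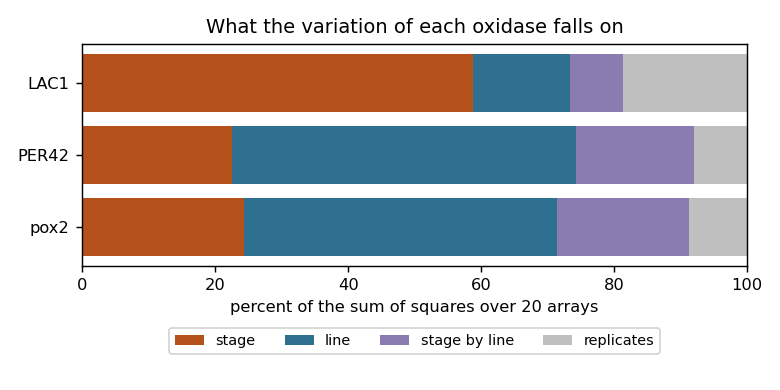
Percent of each oxidase's sum of squares over 20 arrays (horizontal axis) that lies between stages, between lines, in the stage by line term and between replicates. Stage takes the widest part for LAC1 (58.7%), and line the widest part for PER42 (51.7%) and pox2 (47.0%).

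The 3 oxidases did not follow one another closely over the 20 arrays. PER42 and pox2 had a Pearson r of 0.53 and a Spearman rho of 0.37, and 0.38 for both after the mean of each stage was removed. LAC1 ran against PER42 (r = -0.51, rho = -0.52) and against pox2 (r = -0.41, rho = -0.32). With stage means removed these became -0.27 and -0.06 for r. With stage means removed, the 5' relative to 3' control signal had an r of -0.42 with LAC1, 0.15 with PER42 and 0.16 with pox2. For log2 RNA amount these were 0.07, -0.28 (rho = -0.57) and -0.24. Over the 20 arrays LAC1 had an r of -0.48 with RNA amount. The part of RNA quality in the oxidase differences was not tested. The arrays share lines and stages and are not independent points, and most pox2 values lie at the floor.

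Among the 959 other tested probe sets with 1 annotated gene, those most like each oxidase were found by Pearson's r over the 20 arrays. For LAC1 they were DER2.2, a derlin of the endoplasmic reticulum (r = 0.90), sbip1a (0.87) and CAF1 (0.87). Most opposite to LAC1 were emp2 (-0.91), cop2 (-0.89) and the tubulin tub4 (-0.88). DER2.2 kept an r of 0.74 after stage means were removed, and mfs2 (0.75) and dek1 (0.69) stood beside it. With stage means kept, the Spearman rho of mfs2 was 0.38. For PER42 the most alike were Gln1-4, a glutamine synthetase (0.83), the glutathione transferase GST38 (0.79) and CDPK, a calcium-dependent protein kinase (0.74). Gln1-4 (0.79) and GST38 (0.72) led again with stage means removed, followed by tbp1 (0.68). tbp1 ranged from the floor (2.21) to 9.62, and its rho with stage means kept was 0.05. RBR1, a retinoblastoma-related protein (-0.75), MRP2 (-0.75) and LOC606466 (-0.69) ran most opposite to PER42.

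For pox2 the most alike was CPPS2, an ent-copalyl diphosphate synthase that makes precursors of maize defence diterpenoids (r = 0.92). Like pox2, CPPS2 ranged from the floor upwards, between 1.89 and 8.58 over the arrays, and its r was 0.90 with stage means removed. Gln1-4 (0.81) and the homeodomain gene ocl3 (0.75) came next, and HMT-2 (0.79) and ccp2 (0.77) with stage means removed. With stage means kept, the Spearman rho was 0.46 for HMT-2 and 0.68 for ccp2. The most opposite gene was myb42, a repressor of lignin genes (-0.83), then CAT3, a catalase (-0.76), and MRP2 (-0.76). These likenesses were picked as the highest of many over arrays that share lines and stages, and they are descriptions without a test.

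Tested genes of monolignol synthesis were lower at silking or not called. Of 5 genes of monolignol synthesis and its entry, 4 fell and none rose, where 67.7% of all tested probe sets were called and 26.8% fell. The median difference was -0.55, against 0.12 over all tested probe sets. ccr2, a cinnamoyl-CoA reductase, averaged 2.85 ± 0.13 at silking and 5.31 ± 1.55 at tassel (SD, n = 10 each). The difference was -2.46 (SE 0.47, limma adjusted p = 0.000500), with its silking arrays at the floor. ccr2 passed the filter through tassel arrays only, so its call is no separate support for a fall. 4CL, the 4-coumarate:CoA ligase, averaged 12.08 ± 0.76 at silking and 13.23 ± 0.38 at tassel, a difference of -1.15 (SE 0.18, adjusted p = 0.000109). The cinnamyl alcohol dehydrogenase BM1 differed by -0.55 (SE 0.06, adjusted p = 7.66e-06) and the cinnamoyl-CoA reductase cncr1 by -0.24 (SE 0.10, adjusted p = 0.0380). pal3, a phenylalanine ammonia-lyase at the entry, differed by -0.13 (adjusted p = 0.117) and was not called. The fall of PER42 at silking thus ran the same way as 4CL, BM1 and cncr1, and the rise of LAC1 the other way. For pox2 and ccr2, which passed the filter through tassel arrays, nothing is read from a shared direction. None of the 5 was called in the bin 6.06 comparison, where 18.3% of all tested probe sets were. The same held in the bin 9.02 comparison, where 20.7% were called. With so few genes, nothing is read from these counts.

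LAC1 was the only laccase the annotation names. Of 6 probe sets with names of class III peroxidases, only PER42 and pox2 were tested. The other 4, pox1, PER66, per-1 and ap1, stayed between 1.90 and 2.74 on every array, at the floor. The last 2 were matched by synonym, and their role is unsure.

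The MYB factors myb42 and myb31, which act on lignin genes, had tested probe sets. myb42 averaged 7.94 ± 0.94 at silking and 5.66 ± 1.49 at tassel, a difference of 2.28 (SE 0.16, limma adjusted p = 2.27e-07). It was also higher in RIL39 and RIL71 than in the favorable lines (0.83, adjusted p = 0.00522) and lower in RIL118 (-1.39, adjusted p = 0.000663). myb42 was picked above as most opposite to pox2 over these same arrays. Its opposite direction to pox2 in these comparisons is therefore no separate result. The myb42 stage difference varied between lines (limma adjusted p = 0.0026). A second myb42 probe set stayed at the floor (2.11 to 2.44). myb31, a related repressor, differed by 0.40 at silking (adjusted p = 0.0611).

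All 4 measured genes of secondary-wall cellulose fell at silking, where 26.8% of all tested probe sets fell. Their median difference was -1.91, against 0.12 over all tested probe sets. bk2, a COBRA-like protein needed for a firm stalk, differed by -2.24 (SE 0.24, limma adjusted p = 5.95e-06), and the cellulose synthases cesa11 by -1.98 (SE 0.22), cesa10 by -1.83 (SE 0.21) and CesA12 by -1.57 (SE 0.22). These genes mark cells that build secondary walls. Their summed signal on the log2 scale was 11.7 to 14.5 at silking and 14.6 to 15.4 at tassel, without overlap. This marker list thus moved with the stage in the direction of PER42. Its part in the stage differences of the oxidases was not tested. None of the 4 was called in the bin 6.06 comparison, where 18.3% of all tested probe sets were, so nothing is read from that count. bk2 was higher in RIL118 (1.45, adjusted p = 0.00937), where 20.7% of all tested probe sets were called.

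Enzymes that make or remove hydrogen peroxide and superoxide moved both ways. Of 7 tested, 1 rose at silking and 2 fell, where 67.7% of all tested probe sets were called. Their median was -0.09, against 0.12 over all tested probe sets. The catalase CAT3 rose by 0.45 (SE 0.18, limma adjusted p = 0.0373), the superoxide dismutase Sod4A fell by 0.74 (SE 0.08, adjusted p = 7.57e-06), and rbohB, an NADPH oxidase, fell by 0.31 (SE 0.11, adjusted p = 0.0219). The others were sod2 (-0.55, adjusted p = 0.0564), sod3 (0.14), cat1 (-0.09) and apx2, an ascorbate peroxidase (0.03). None was called in the bin 6.06 comparison, where 18.3% of tested probe sets were, and with so few genes nothing is read from that count. In RIL118, where 20.7% of tested probe sets were called, rbohB (0.57) and cat1 (0.38) were higher and CAT3 (-0.86) and sod3 (-0.55) lower than in the favorable lines.

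Markers of other tissues also differed in places. Of 14 leaf probe sets, 1 rose and 2 fell at silking, against 67.7% called over all tested probe sets. In RIL39 and RIL71 4 of the 14 were called, all higher, where 18.3% of all tested probe sets were called in either direction. In RIL118 6 were called, all lower, where 20.7% were called in either direction. The 14 stand for 9 genes. C4ppdkZm1 gave more than 1 of the higher probe sets and CP24 more than 1 of the lower. Their summed log2 signal was 15.0 to 16.8 at silking and 15.4 to 16.7 at tassel. Of 4 meristem genes, 3 rose and 1 fell at silking, and 2 of 3 epidermal genes fell, beside 40.9% of all tested probe sets higher and 26.8% lower. ocl3, the epidermal gene among those most like pox2, was lower in RIL39 and RIL71 by 0.92 (limma adjusted p = 0.0395). It was picked over these same arrays, so its likeness to pox2 here is no separate result. The part of these tissues in the oxidase differences was not tested.

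**Figure D5:**
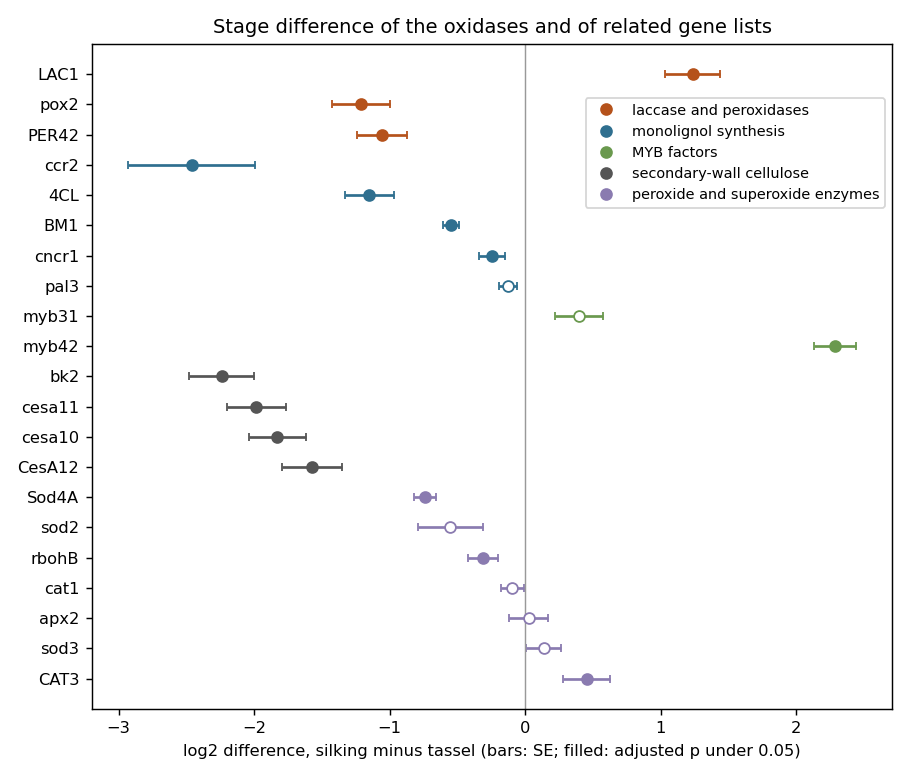
Log2 difference of early silking minus emerging tassel (horizontal axis) for the 3 oxidases and the tested genes of related lists, over 5 lines. Points are estimates, bars are the SE, and filled points have a limma adjusted p below 0.05. PER42 and pox2 lie left of 0 with the monolignol and secondary-wall cellulose genes, and LAC1 lies right of 0 with myb42.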

How the data were processed

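The authors deposited a log2 expression value for each probe set, made with GCRMA per the submitters' processing notes. Its version and the array build are not given in the sources used here. Positions are by chromosome only.

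From these, limma 3.58.1 in R 4.3.3 fitted a mean for each of the 10 groups of line and stage, with eBayes (10 residual and 2.37 prior degrees of freedom) and Benjamini-Hochberg adjustment over 11033 probe sets. The 179 control probe sets were left out. Lines and stages had equal weight in contrasts. The number of arrays limits the precision. The annotation lists a gene for 1453 maize probe sets. Genes most like an oxidase were the 3 with the highest and the 3 with the lowest Pearson r, and the 3 highest with stage means removed; every tested member of each list was counted. The oxidases and lists were chosen with earlier results of these data known. The replicate number was not treated as a pairing. Over 45 pairs of groups, deviations of same-numbered arrays correlated at -0.436 to 0.512, and 16 pairs exceeded 0.1. Such a mix cannot show whether some same-numbered arrays share a batch. Alternatives covered the filter, scaling, prior, covariate, block and left-out arrays. Sequences were not used here.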

Additional observations from a re-analysis of the deposited data

Results flagged for a closer look

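One value stood far from the rest of its group among the 18 groups of 4 to 10 arrays checked for the 3 oxidases. pox2 in RIL118 replicate 1 was 4.86 at early silking, while the other 9 silking arrays lay at 2.41 to 2.79. The gap to the nearest array was 0.846 of the range of the 10 arrays. Chance flags about 1 in 20 groups of this kind. The other RIL118 silking array was 2.77, and both RIL118 tassel arrays were above 5.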

How the results depend on the processing

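The stage differences of LAC1, PER42 and pox2, and the bin 6.06 differences of PER42 and pox2, stayed called under every alternative that gave a value. The pox2 calls are no separate support, since pox2 passed the filter through tassel arrays of RIL99 and RIL118. Fits with arrays left out kept the probe sets of the full filter. With 1 array left out in turn, the stage difference ran from 1.10 to 1.37 for LAC1, from -1.18 to -0.94 for PER42 and from -1.42 to -1.0 for pox2. pox2 gave no value under the filter of 10 arrays above 5. With the replicate number as a block, no call of an oxidase changed. Stage differences then had limma adjusted p-values of 0.000318 for LAC1, 0.000484 for PER42 and 0.000430 for pox2. Leaving out 1 array moved the bin 9.02 difference between 0.34 and 1.03 for LAC1, between -0.77 and -0.17 for PER42 and between 0.52 and 1.56 for pox2. The adjusted p of the stage by line test then ran from 0.0229 to 0.161 for PER42 and from 0.000779 to 0.165 for pox2, and was 0.00148 for pox2 without RIL118. Counts of called probe sets ran from 1301 to 2925 for bin 9.02 and from 320 to 1195 for the stage by line test. Without the 2 arrays of lowest 5' signal, 1242 were called for bin 6.06, against 2023, and 181 for the stage by line test, against 679. Some differences that were not called changed sign. With RNA amount as a covariate, the pox2 bin 6.06 difference at silking was 0.0045 and the PER42 change of that difference between stages 0.0803, which was 0.0624 without the 2 arrays of lowest 5' signal. With 1 array left out, these ran from -0.17 to 0.0192 and from -0.33 to 0.14. The PER42 stage difference then ran from -0.35 to 0.14 in RIL71 and from -0.64 to 0.54 in RIL118. For bin 9.02 at silking the range was -0.27 to 1.11 for LAC1 and -0.15 to 0.42 for PER42, and for its change between stages -1.22 to 0.16 for LAC1 and -0.68 to 1.41 for pox2. The causes were not tested. A group left with 1 array was assumed to vary like the other groups. Values at the floor limit what can be read for pox2.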
